A study of Mus musculus with 3 samples.

Results

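Type I interferon signalling was followed through 8 genes that span the path from ligand to response, out of 55357 genes in each matrix. Ifnb1 encodes interferon beta. Ifnar1 and Ifnar2 encode the chains of its receptor. Tbk1 encodes a kinase upstream of interferon induction, and Irf1, Irf3, Irf8 and Irf9 encode interferon regulatory factors (IRFs). The genes were picked by name, all 8 were found in the files, and the question was which cells held the ligand, the receptor and the factors.

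Cells were dissociated from the brain around the lesion, on the left side, and sequenced singly, with 1 library for each of 3 groups. All mice were C57BL/6 males, 6 to 8 weeks old. A sham group stood beside mice with a traumatic brain injury (TBI) that received either saline vehicle (TBI+PBS) or the cytokine IL-25 (TBI+IL-25). IL-25 was given at 1 µg per mouse within 30 min of injury and then each day for 3 days. The labels name no transgene or mutant allele, and they do not give the number of animals behind a library. With 1 library per group, the condition and the library cannot be told apart, so no p-value is given. Every interval below is a 95% interval that covers counting error only, and values in series run from sham through TBI+PBS to TBI+IL-25.

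Interferon beta is made when sensors of nucleic acid or bacterial products activate kinases such as TBK1, which phosphorylates IRF3 so that it enters the nucleus and binds the Ifnb1 promoter beside NF-kappaB and AP-1. The secreted protein binds IFNAR1 and IFNAR2, and the receptor's kinases start a signal that reaches the nucleus with IRF9 and switches on interferon-stimulated genes. Microglia, the resident macrophages of the brain, are known both to make interferon beta and to respond to it, and IRF8 is needed for their identity.

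The promoter stretches below are shown because they hold the elements through which IRFs, NF-kappaB and interferon signalling are known to act on these genes. They were read from RefSeq promoters of build GRCm38.p6, in which all 8 genes had an entry. The count files follow GRCm39, so these coordinates belong to GRCm38.p6 alone. Ifnb1 lies on the minus strand at chr4:88522889-88522965, bases -171 to -95 from its RefSeq start. Irf1 lies on the plus strand at chr11:53769912-53769944, bases -102 to -70. Irf8 lies on the plus strand at chr8:120736175-120736225, bases -183 to -133. Capitals mark IRF elements (AANNGAAA) and the kappaB element (GGGA, any 2 bases, TTCC) in Ifnb1, and GAS elements (TTCNNNGAA, the interferon gamma-activated site) in Irf1 and Irf8.
Ifnb1: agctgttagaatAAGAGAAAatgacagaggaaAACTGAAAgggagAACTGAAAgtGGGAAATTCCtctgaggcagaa
Irf1: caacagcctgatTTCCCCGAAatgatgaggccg
Irf8: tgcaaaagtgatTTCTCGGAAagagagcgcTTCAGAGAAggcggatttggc
Both strands of the 250 bases before each start were searched, and none of the matches shown overlaps another. The Ifnb1 stretch held 3 IRF elements and 1 kappaB element. Of 32851 promoters of that length, 21.3% held at least 1 IRF element, 4.20% held at least 2, and 1.21% held a kappaB element. The entries shown for Irf1 and Irf8 held 1 and 2 GAS elements, and a second RefSeq entry of each gene held 0, where 7.02% of promoters held at least 1 and 0.317% held at least 2. Ifnar2 also held 1 GAS element, TTCCTGGAA at base -214. Ifnar1, Irf3, Irf9 and Tbk1 held none of these elements. These matches describe letters only.

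After filtering, 8710, 10299 and 13532 cells were kept, with medians of 4111, 4666 and 3841 unique molecular identifiers (UMIs) per cell. Levels are in CPM, the UMIs of a gene divided by all UMIs of the class in that library and scaled to 1000000. Cells were clustered without the 8 genes, and clusters were named "like" a cell type from marker lists. Microglia-like clusters held 11 or 12 of 12 microglial markers, and astrocyte-like clusters 9 or 10 of 10 astrocyte markers. Libraries shared 24 to 39 cell barcodes in each pair. Microglia-like cells numbered 5000, 4596 and 5542, and astrocyte-like cells 3285, 4524 and 6687. The clusters that fill a class differed between libraries: cluster 0, with P2ry12 among its leading genes, made up 83.3%, 35.3% and 5.68% of microglia-like cells, and cluster 2, led by Hcar2 and Il1a, 0.70%, 16.1% and 38.1%. The astrocyte-like class was mostly cluster 3 in sham (44.3%), cluster 11 after injury with vehicle (28.0%), and clusters 7 and 10 under IL-25 (23.5% and 20.4%). Ribosomal RNA genes took 0.0369%, 0.0450% and 0.803% of UMIs. Depth and ribosomal RNA share cannot be told apart from group, nor, for TBI+IL-25, can the software version in the file headers.

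Almost all Ifnb1 UMIs were in microglia-like cells, and the Ifnb1 level there stood apart in the TBI+IL-25 library. Microglia-like cells held 14 of 16 Ifnb1 UMIs (87.5%, Clopper-Pearson 61.7 to 98.4), 44 of 45 (97.8%, 88.2 to 99.9) and 1162 of 1206 (96.4%, 95.1 to 97.3). They held 51.9%, 45.6% and 49.8% of the UMIs of all genes. Their Ifnb1 level was 0.713 CPM (exact Poisson 0.390 to 1.20), 1.75 CPM (1.27 to 2.35) and 41.5 CPM (39.1 to 44.0). The 3 intervals did not overlap. Relative to TBI+PBS, the TBI+IL-25 level was 23.7-fold higher (17.6 to 32.8). TBI+PBS stood 2.45-fold above sham (1.32 to 4.85), on few UMIs, of which 13 of 44 came from 1 cell.

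**Figure D1:**
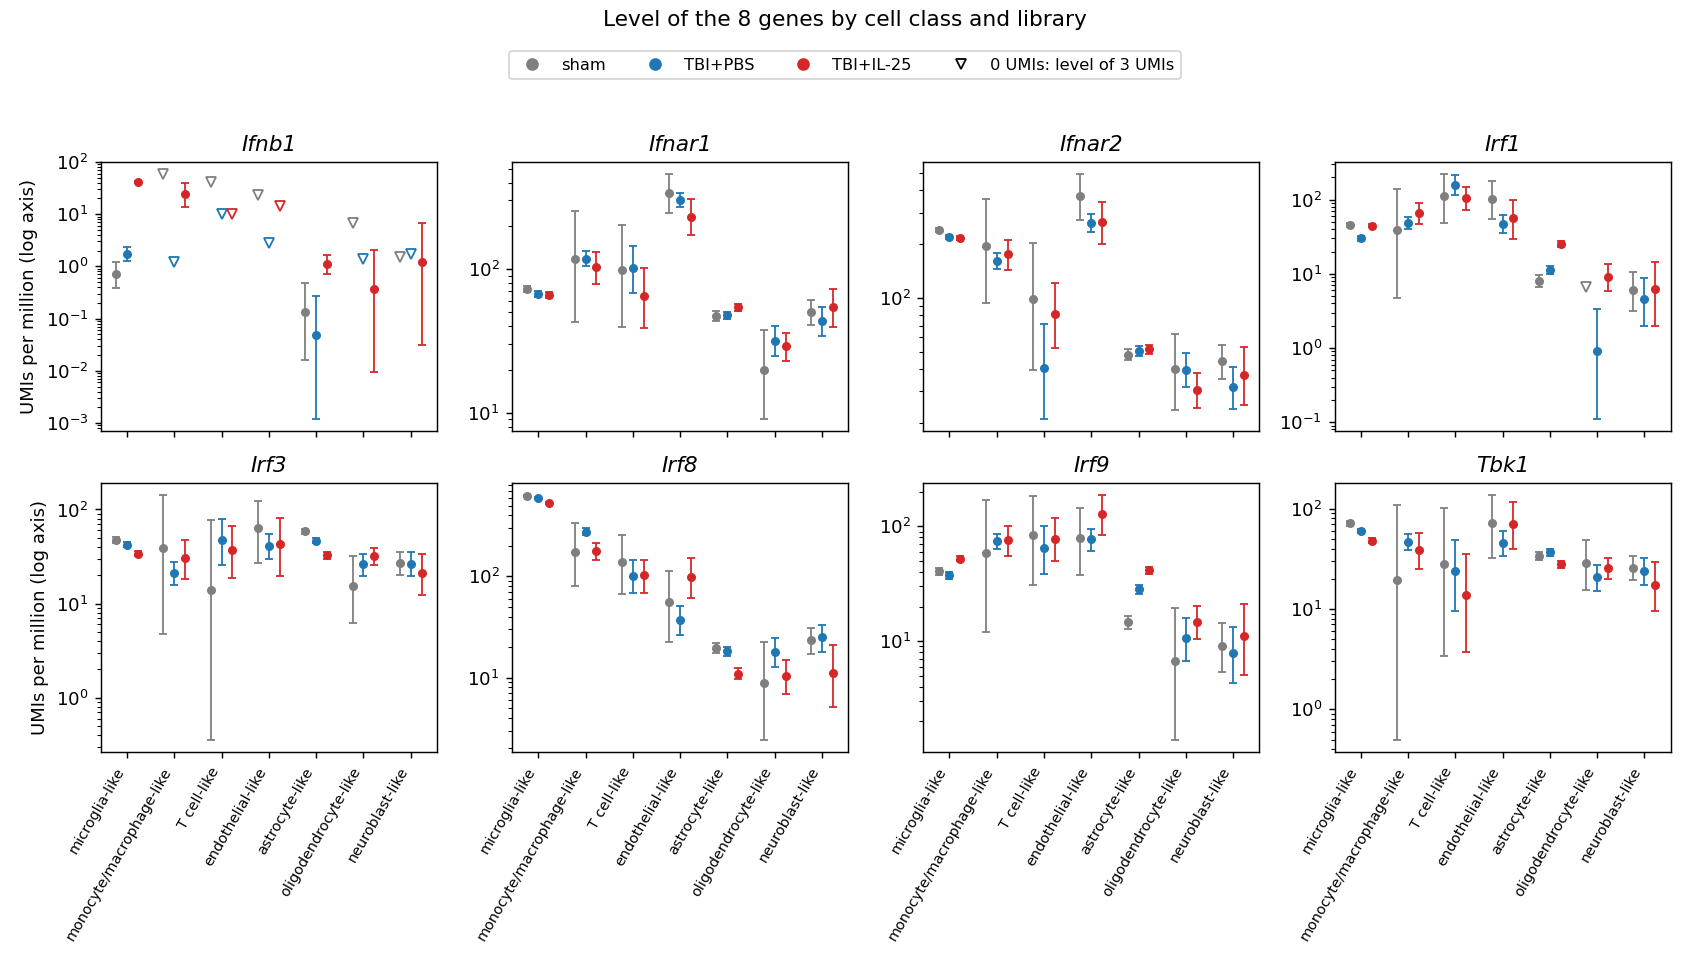
Level of each of the 8 genes in CPM (log axis) by cell class, coloured by library. Points are class sums with exact Poisson intervals, and open triangles show the level of 3 UMIs where a gene had 0. Ifnb1 reached 41.5 in TBI+IL-25 microglia-like cells, Ifnar1 was highest in endothelial-like cells, and Irf8 was highest in microglia-like cells.

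Other classes held few of the Ifnb1 UMIs, although 1 small class came near the microglia-like level in TBI+IL-25. Monocyte/macrophage-like cells had 0 UMIs in 10 sham cells and in 248 from TBI+PBS, which allows up to 1.20 CPM there. In TBI+IL-25 they had 15 UMIs in 5 of 108 cells, or 24.2 CPM (13.5 to 39.8). The microglia-like level in that library was 1.72 times as high (1.04 to 3.08). The monocyte/macrophage-like level was at least 20.1-fold higher in TBI+IL-25 than in TBI+PBS, with the floor at 3 UMIs over the class. The 15 UMIs in these cells fall short of the 20 at which a gene counted as measured. Microglial RNA at the level found in those cells (a median of 20.7% of the microglia-like level over 6 microglial genes, range 6.87% to 22.2%) would give 8.58 of the 24.2 CPM at the median. Macrophages are known to express several of those genes themselves. That class also listed border-macrophage genes (F13a1, Ms4a7 and Pf4) among its leading genes. Astrocyte-like cells held 2, 1 and 24 UMIs, and in TBI+IL-25 18 of the 24 were in 2 cells, each with 5 or more. Endothelial-like and T cell-like cells held 0 Ifnb1 UMIs in every library, which in TBI+IL-25 allows up to 14.2 CPM in the endothelial-like class. Other type I interferons were close to absent: the 17 other ligand genes, among them the Ifna genes, summed to 5, 2 and 7 UMIs over all kept cells.

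A minority of microglia-like cells carried the transcript. An Ifnb1 UMI was seen in 11 of 5000 cells (0.22%), 20 of 4596 (0.435%) and 334 of 5542 (6.03%, 5.41 to 6.69). Median depths were 3918, 4748 and 4727 UMIs per cell. In astrocyte-like cells, taken as the background class, the shares were 0.0609%, 0.0221% and 0.120%, at median depths of 4511, 4328 and 2957. With each cell thinned to 2000 UMIs, the microglia-like shares came to 0.117%, 0.194% and 4.27%, over 4371, 4282 and 5098 cells deep enough. In TBI+IL-25, 131 cells held 1 Ifnb1 UMI, 117 held 2 to 4, and 86 held 5 or more. Those 86 cells carried 704 UMIs, or 60.6% of the class total, and the highest cell held 23.

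**Figure D2:**
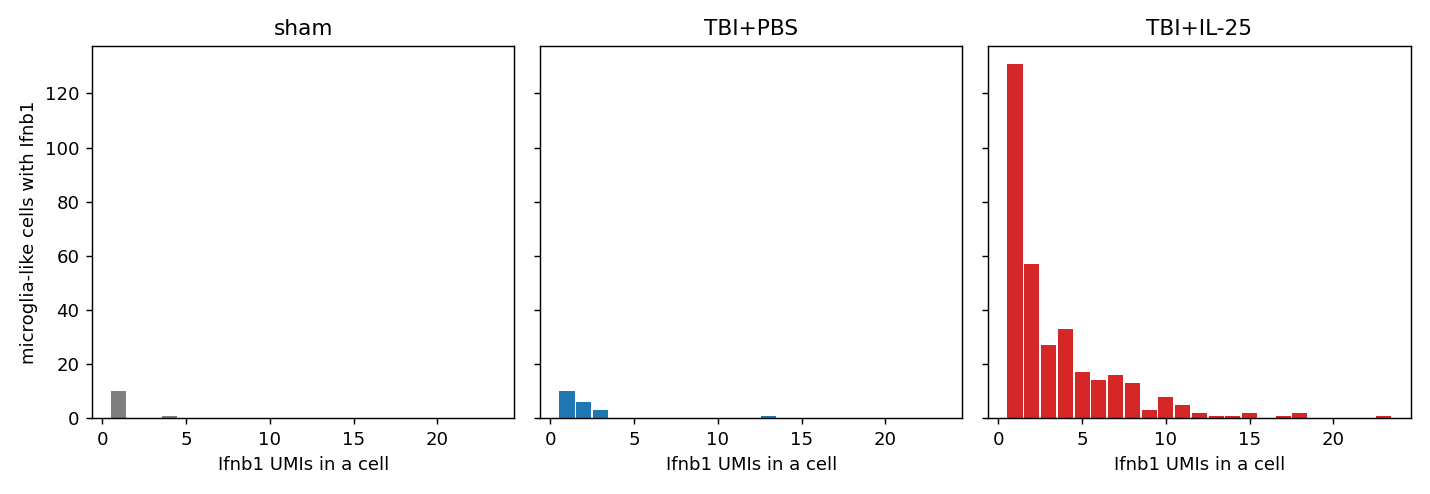
Number of microglia-like cells (vertical axis) by the number of Ifnb1 UMIs in the cell (horizontal axis), with 1 panel per library; cells with 0 are left out. TBI+IL-25 held 334 such cells and reached 23 UMIs in 1 cell, while sham held 11 and TBI+PBS held 20.

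Ifnb1 was unevenly spread over microglia-like clusters, and it was higher in TBI+IL-25 in each cluster that could be compared. In the TBI+IL-25 library the highest level was in cluster 13, led by Ifit2, Mx1, Ifit1 and Usp18, which are interferon-stimulated genes. There 468 UMIs in 119 of 601 cells gave 156 CPM (142 to 171). Cluster 17, led by cell-cycle genes such as Mki67 and Brca1, came next with 97.5 CPM (82.5 to 115). The lowest was cluster 8, led by Adam8, Lpl and Spp1, with 9.31 CPM (6.99 to 12.1). Clusters 9 and 0, the ones most shared with sham, had 56.8 and 43.7 CPM, and their intervals overlapped. In TBI+PBS the range was 0.618 CPM in cluster 8 to 6.64 CPM in cluster 13, where 4 UMIs were counted. The TBI+IL-25 to TBI+PBS ratio had an interval above 1 in 7 of 7 clusters with at least 50 cells in both libraries, and ranged from 6.02 in cluster 2 (3.68 to 10.5) to 69.6 in cluster 9 (18.6 to 586). In cluster 9 the TBI+PBS count was 2 UMIs. In cluster 0 the ratio was 27.6 (13.8 to 61.2). TBI+PBS against sham gave ratios of 1.09 to 2.50 in the 3 clusters that could be compared, each with an interval that spanned 1.

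**Figure D3:**
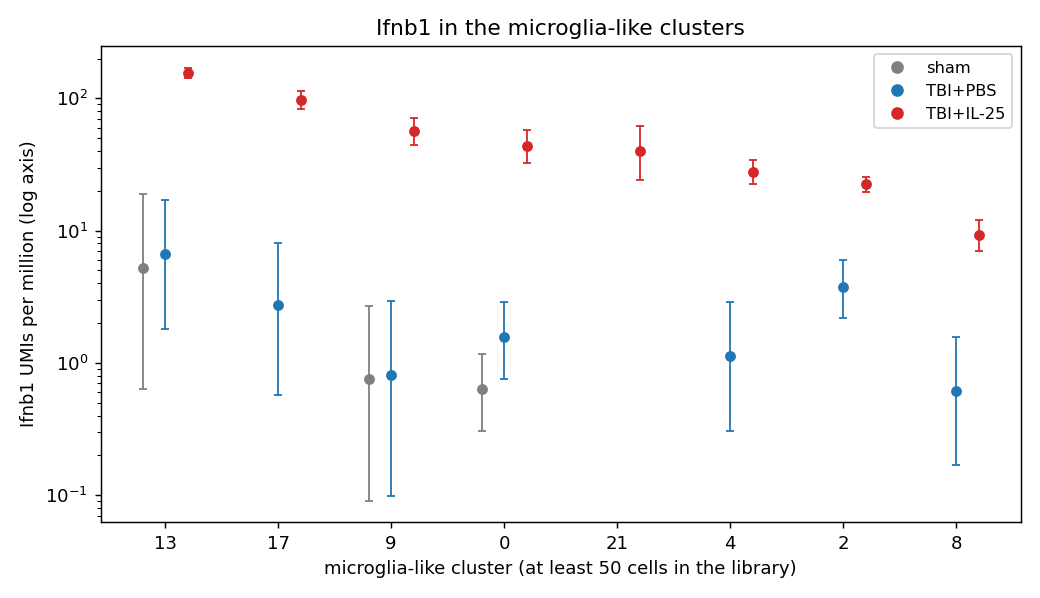
Ifnb1 in CPM (log axis) in each microglia-like cluster with at least 50 cells in the library, ordered by the TBI+IL-25 level. Points are cluster sums with exact Poisson intervals; TBI+IL-25 runs from 156 in cluster 13 to 9.31 in cluster 8 and lies above the other libraries wherever a cluster is shared.

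The receptor genes were found in every class with at least 30 cells, and endothelial-like cells stood highest. Ifnar1, the chain bound by TYK2, was at 340, 303 and 232 CPM in endothelial-like cells. In microglia-like cells it was at 72.6, 66.7 and 66.0 CPM, and in astrocyte-like cells at 47.3, 47.6 and 54.2 CPM. Endothelial-like cells stood above the next class in all 3 libraries, by 4.68, 2.56 and 2.25 times (lowest bound 1.52). They had 4.68, 4.55 and 3.51 times the microglia-like level (lowest bound 2.59). These values rest on 36, 220 and 49 endothelial-like cells. In TBI+PBS, monocyte/macrophage-like cells (118 CPM) and T cell-like cells (102 CPM) came next and did not differ beyond counting error. Oligodendrocyte-like and choroid plexus-like cells were lowest in each library, at 19.9 to 31.7 and 8.63 to 12.9 CPM.

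Ifnar2, the chain bound by JAK1, set microglia-like cells further apart from astrocyte-like cells than Ifnar1 did. It was at 240, 219 and 216 CPM in microglia-like cells and at 48.1, 50.4 and 51.6 CPM in astrocyte-like cells. The microglia-like to astrocyte-like ratio was 5.00 (4.62 to 5.42), 4.34 (4.07 to 4.64) and 4.19 (3.93 to 4.47) for Ifnar2. For Ifnar1 it was 1.53 (1.40 to 1.68), 1.40 (1.29 to 1.52) and 1.22 (1.13 to 1.31). Endothelial-like cells had 371, 263 and 265 CPM of Ifnar2, above microglia-like cells in sham and TBI+PBS; in TBI+IL-25 the ratio of 1.23 (0.925 to 1.59) spanned 1. Microglia-like cells held 83.5%, 73.5% and 79.4% of all Ifnar2 UMIs.

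Neither receptor gene was past 1.5-fold between libraries in the microglia-like or the astrocyte-like class as a whole. The TBI+IL-25 to TBI+PBS ratio in microglia-like cells was 0.99 for Ifnar1 (0.926 to 1.06) and 0.986 for Ifnar2 (0.951 to 1.02). In astrocyte-like cells it was 1.14 (1.04 to 1.24) and 1.02 (0.940 to 1.11). The astrocyte-like clusters went both ways for Ifnar2, with 1.51 in cluster 1 (1.22 to 1.88), past the fold, and 0.402 in the shallow cluster 5 (0.174 to 0.820), on 9 and 54 UMIs. TBI+PBS against sham gave 0.92 and 0.911 in microglia-like cells, and 1.01 and 1.05 in astrocyte-like cells. The libraries that differed 23.7-fold in Ifnb1 thus lay within 1.14-fold of each other in the receptor of both classes.

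Read by the 1.5-fold rule, 2 of 8 genes differed between TBI+PBS and sham in microglia-like cells, Ifnb1 upward and Irf1 downward. Among 14986 genes with at least 20 UMIs over both libraries, 13.5% were past the fold upward and 21.5% downward. In astrocyte-like cells 1 of 7 measured genes was past it, Irf9 upward, against 13.9% of 16567 genes upward and 17% downward. Between TBI+IL-25 and TBI+PBS, 1 of 8 was past the fold in microglia-like cells, Ifnb1 upward, against 13.3% of 15407 genes upward and 15.1% downward. In astrocyte-like cells 3 of 8 were, with Ifnb1 and Irf1 upward and Irf8 downward, against 10.7% of 16777 genes upward and 27.6% downward. These shares of called members are near the background or rest on few genes, so the sizes below carry the description. Against sham, TBI+IL-25 had 1 of 8 past the fold in microglia-like cells, Ifnb1 upward, beside 19.7% of all genes upward and 30.8% downward. In astrocyte-like cells it had 5 of 8, with Ifnb1, Irf1 and Irf9 upward and Irf3 and Irf8 downward, beside 19.7% upward and 37.4% downward. These comparisons share libraries in pairs and are not independent.

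**Figure D4:**
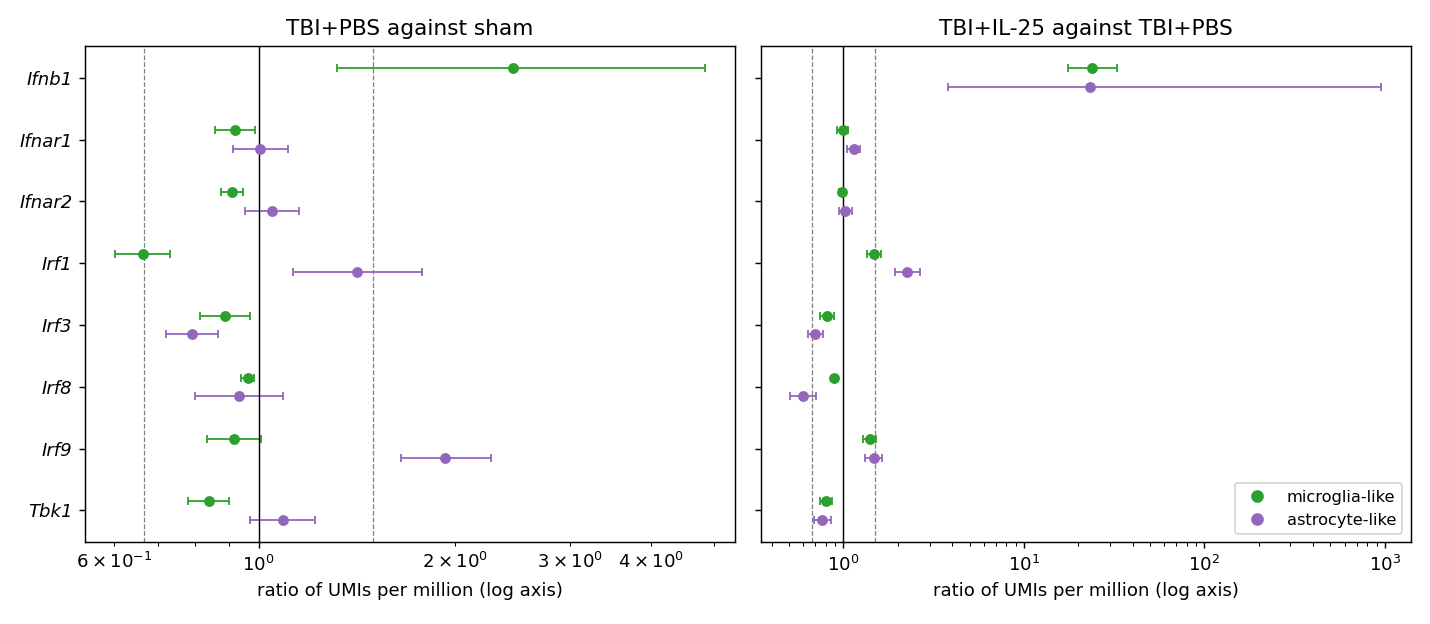
Ratio of CPM (log axis) between libraries for the 8 genes in microglia-like (green) and astrocyte-like (purple) cells, with exact intervals; dashed lines mark 1.5-fold either way. Left, TBI+PBS against sham; right, TBI+IL-25 against TBI+PBS. Irf1 lies on opposite sides of 1 in the left panel, and Ifnb1 is far to the right in the right panel; its astrocyte-like interval runs from 3.78 to 952 because TBI+PBS held 1 UMI.

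Tbk1 and Irf3, the kinase and its substrate, were lowest in the library with the most Ifnb1, in both large classes. Tbk1 in microglia-like cells was at 71.3 CPM (67.6 to 75.1), 59.8 (56.8 to 62.9) and 47.8 (45.3 to 50.5). The intervals did not overlap, and TBI+IL-25 was the lowest library, at 0.671 times sham (0.622 to 0.723) and 0.80 times TBI+PBS (0.743 to 0.862). Within the 3 clusters that could be compared with sham, the ratio to sham was 0.810 to 0.879, with intervals that spanned 1. Against TBI+PBS the interval lay below 1 in 3 of 7 clusters. The median log2 ratio of all genes to sham was -0.20 in this class. Astrocyte-like cells had 33.6, 36.5 and 27.9 CPM of Tbk1, so within each library the microglia-like level was higher, by 2.12, 1.64 and 1.71 times. The astrocyte-like TBI+IL-25 level of Tbk1 was 0.832 times sham (0.738 to 0.939), where the median log2 ratio of all genes was -0.28. Among microglia-like clusters of TBI+IL-25, Tbk1 was highest in cluster 13, at 61.1 CPM (52.6 to 70.6), where Ifnb1 was highest too, and lowest in cluster 4, at 42.7 CPM (36.2 to 50.1). Irf3 was highest in sham and lowest in TBI+IL-25 in both classes, at 47.3, 42.0 and 34.0 CPM in microglia-like cells and 58.7, 46.4 and 32.5 CPM in astrocyte-like cells. Within the 3 microglia-like clusters compared with sham, the TBI+IL-25 ratio of Irf3 was 0.706 to 0.871, with intervals that spanned 1. Against TBI+PBS the interval lay below 1 in 1 of 7 microglia-like clusters, and above 1 in 0. The astrocyte-like TBI+IL-25 level of Irf3 was 0.553 times sham (0.500 to 0.611) and 0.70 times TBI+PBS (0.634 to 0.772). Within clusters 1 and 3 the ratio to sham was 0.692 and 0.783, short of the fold, and in cluster 14 it was 0.640, past it. In the shallow cluster 5 it was 2.94 on 9 and 6 UMIs (0.934 to 10.0). Microglia-like cells held 49.2%, 46.4% and 51.7% of Irf3 UMIs, near their share of all UMIs. In TBI+IL-25 their Irf3 level did not differ from that of astrocyte-like cells beyond counting error (ratio 1.05, 0.949 to 1.16). TBK1 and IRF3 are known to be regulated by phosphorylation, which was not measured.

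Irf1, an interferon-inducible activator, had a different order of libraries in the 2 large classes. In microglia-like cells it was at 45.4 CPM (42.5 to 48.5), 30.2 (28.1 to 32.4) and 44.7 (42.3 to 47.3). Sham and TBI+IL-25 overlapped, and TBI+PBS was lower, at 0.664 times sham (0.602 to 0.732). With cells weighed equally that ratio was 0.757, and with median-of-ratios size factors 0.769, neither past the fold. Within cluster 0 it was 0.804 (0.688 to 0.938), short of the fold. In clusters 9 and 13 it was 0.653 (0.488 to 0.868) and 0.653 (0.421 to 1.01). Cluster 8, which made up 0.36% of the class in sham and 15.1% in TBI+PBS, had 18.7 CPM in TBI+PBS. In astrocyte-like cells Irf1 was at 7.93 CPM (6.56 to 9.51), 11.2 (9.84 to 12.8) and 25.4 (23.3 to 27.6), with no overlap. TBI+IL-25 stood 2.26-fold above TBI+PBS (1.93 to 2.64). That ratio had an interval above 1 in 3 of 8 astrocyte-like clusters, and below 1 in 0. In astrocyte-like cluster 15, led by Iigp1, Lcn2 and Gbp2, Irf1 was at 19.4 CPM in TBI+PBS and 81.1 CPM in TBI+IL-25, a ratio of 4.18 (3.01 to 5.87). Within cluster 1, the astrocyte-like cluster most evenly shared by the libraries, TBI+PBS was lower than sham (0.539, 0.313 to 0.911), opposite to the class as a whole. In the other shared clusters, 3, 5 and 14, the ratios were 1.04, 1.30 and 0.740, with intervals that spanned 1. TBI+IL-25 against sham gave 0.917 in cluster 1 (0.514 to 1.59) and 1.03 in cluster 14 (0.482 to 2.21). The same comparison gave 3.11 in cluster 3 (1.92 to 4.95) and 2.35 in cluster 5 (0.598 to 9.74). Genes of tissue dissociation and immediate early response summed to 22318, 17237 and 23731 CPM in microglia-like cells and 957, 3290 and 5829 CPM in astrocyte-like cells, and their part in the Irf1 values was not tested. Oligodendrocyte-like cells held 0, 2 and 25 Irf1 UMIs, so the TBI+IL-25 to TBI+PBS ratio of 9.99 has an interval of 2.49 to 87.

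Irf9 encodes the DNA-binding part of the complex that acts at interferon-stimulated genes. Its class level was higher in TBI+IL-25 than in TBI+PBS in both large classes. Microglia-like cells had 40.7 CPM (38.0 to 43.7), 37.4 (35.0 to 39.8) and 52.1 (49.5 to 54.9). Sham and TBI+PBS overlapped, and TBI+IL-25 was 1.40-fold above TBI+PBS (1.28 to 1.52), short of the fold. That ratio had an interval above 1 in 6 of 7 microglia-like clusters; the exception was cluster 13, where Irf9 was already at 74.7 CPM in TBI+PBS and stood at 77.8 CPM in TBI+IL-25. Astrocyte-like cells had 14.6 CPM (12.7 to 16.7), 28.2 (26.0 to 30.6) and 41.4 (38.7 to 44.2), a rank order with no overlap. TBI+PBS was 1.93-fold above sham (1.65 to 2.27) and TBI+IL-25 was 1.47-fold above TBI+PBS (1.32 to 1.63). The first of these ratios was 2.14 in cluster 3 (1.51 to 2.99), 1.14 in cluster 1 (0.840 to 1.55), 1.95 in cluster 5 (0.640 to 7.07) and 1.41 in cluster 14 (0.644 to 3.12). The second had an interval above 1 in 2 of 8 astrocyte-like clusters, and below 1 in 0. Those above were cluster 14, at 2.11 (1.17 to 4.00), and cluster 15, at 1.67 (1.31 to 2.12). The clusters that filled the class differed between the libraries, and how much of the class value comes from that was not tested. Endothelial-like cells held the highest Irf9 levels among classes with at least 30 cells, at 79.0, 76.8 and 128 CPM, although the next class overlapped within counting error each time.

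Irf8, a factor of the myeloid and B cell lineages, marked microglia-like cells. Its level there was 618 CPM (607 to 629), 595 (586 to 605) and 530 (522 to 539). The 3 intervals did not overlap, and TBI+IL-25 was 0.891 times TBI+PBS (0.871 to 0.911). TBI+PBS was 0.963 times sham in the class (0.940 to 0.986). Within shared clusters 0 and 9 it stood above sham instead, at 1.12 (1.08 to 1.16) and 1.10 (1.03 to 1.18) times. In cluster 13 that ratio was 0.934 (0.802 to 1.09). Microglia-like cells held 96.8%, 92.0% and 96.6% of all Irf8 UMIs. B cell-like cells, of which 23 and 26 were kept after injury, had 408 and 382 CPM. Monocyte/macrophage-like cells had 276 CPM in TBI+PBS (256 to 297) and 177 CPM in TBI+IL-25 (146 to 214), a ratio of 0.643 (0.521 to 0.787). Microglial RNA at the level found in that class, by the median of 6 microglial genes, would give 77.3 and 110 CPM of these, leaving 198 and 67.5 CPM. The 6 genes ranged from 5.36% to 17.2% of the microglia-like level in TBI+PBS and from 6.87% to 22.2% in TBI+IL-25. Macrophages express several of them, so the CPM left over depends on the use of the median. Across microglia-like clusters of TBI+IL-25, Irf8 ran from 398 CPM in the cycling cluster 17 to 600 CPM in cluster 0.

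The Irf8 counted in astrocyte-like cells was close to the level of microglial RNA found there. The level of 6 microglial genes (C1qa, C1qb, C1qc, Csf1r, Cx3cr1 and P2ry12) in astrocyte-like cells was a median of 2.96%, 2.78% and 1.84% of their microglia-like level. At those shares, microglial RNA alone would give 18.3, 16.5 and 9.75 CPM of Irf8, beside the 19.6, 18.3 and 11 CPM counted. The astrocyte-like Irf8 ratio between TBI+IL-25 and TBI+PBS was 0.60 (0.508 to 0.707), and with doublets kept it was 1.29, so its direction depends on that filter. The same share would give 3.97 of the 51.6 CPM of Ifnar2 in TBI+IL-25 astrocyte-like cells, and 0.763 of the 1.11 CPM of Ifnb1. That share is an average over the class, whereas 18 of the 24 Ifnb1 UMIs were in 2 cells. By cluster, 18 of the 24 were in cluster 15, at 9.73 CPM, where TBI+PBS held 0. The source of these UMIs was not tested.

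Around the 8 genes, other parts of the pathway also differed by library, and the lists had been drawn up with earlier results of these data known. Of 24 interferon-stimulated genes, 19 of 22 measured were past 1.5-fold higher in TBI+IL-25 than in TBI+PBS in microglia-like cells, and 0 lower, with a median log2 ratio of 1.04 against -0.05 over all genes. Of all genes measured there, 13.3% were past the fold upward and 15.1% downward. Ifit2, an antiviral protein that binds RNA, was at 6.92 and 30.2 CPM (ratio 4.36, 3.70 to 5.17). Cxcl10, a chemokine for T cells, was at 123 and 505 CPM (4.11, 3.95 to 4.27). In TBI+PBS against sham, 9 of 21 were higher and 3 lower in microglia-like cells, beside 13.5% and 21.5% of all genes. Astrocyte-like cells had 18 of 21 higher in TBI+PBS than in sham, with a median log2 ratio of 2.30 against -0.06 over all genes, of which 13.9% were past the fold upward. In TBI+IL-25 against TBI+PBS they had 13 higher and 1 lower of 21, beside 10.7% and 27.6% of all genes. Astrocyte-like Cxcl10 was at 0.542, 75.8 and 204 CPM.

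In the IRF family, Irf7, the factor that amplifies type I interferon, was past the fold upward in each step. Microglia-like cells had 5.09, 8.43 and 13.1 CPM of Irf7, and astrocyte-like cells 0.271, 3.30 and 5.53 CPM. Irf4 (ratio 0.364) and Irf2 (0.638), a repressor of interferon genes, were lower in TBI+PBS than in sham in microglia-like cells. Among sensors, Zbp1, a sensor of Z-form nucleic acid, was at 1.07, 5.80 and 14.6 CPM in microglia-like cells. Tlr9, which senses DNA in endosomes, was 2.31-fold higher in TBI+IL-25 than in TBI+PBS in the same class (1.64 to 3.31). Ifih1 and Ddx58, which encode the RNA sensors MDA5 and RIG-I, were both 1.56-fold higher there, and Ddx58 had been 0.473 times sham in TBI+PBS.

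Tyk2, a kinase of the receptor, was at 14.4 CPM in astrocyte-like cells of TBI+PBS and at 6.96 CPM in those of TBI+IL-25 (0.482, 0.394 to 0.588). The interferon gamma receptor chain Ifngr1 was lower in TBI+IL-25 in both classes, at 0.656 and 0.613 times TBI+PBS. Among feedback regulators in microglia-like cells, 4 of 9 were higher in TBI+IL-25 than in TBI+PBS, beside 13.3% of all genes, with Tnfaip3 and Nfkbia, inhibitors of NF-kappaB, at ratios of 2.39 and 2.11. Socs3, an inhibitor of JAK-STAT signalling, was at 5.56, 295 and 820 CPM in astrocyte-like cells. Of 7 partners that act at the Ifnb1 promoter, Jun, Rela and Hmga1 were higher in TBI+IL-25 than in TBI+PBS in astrocyte-like cells (1.97, 1.86 and 1.58). In microglia-like cells 0 of 7 were higher, and Hmga1 was lower (0.583). Over the pathway lists together, with the 8 genes and without interferon-stimulated genes, 12 of 58 measured genes were higher and 4 lower in microglia-like cells, and 12 of 56 higher and 8 lower in astrocyte-like cells, for TBI+IL-25 against TBI+PBS. Over all genes these shares were 13.3% and 15.1% in microglia-like cells, and 10.7% and 27.6% in astrocyte-like cells. The median log2 ratio of all genes was -0.05 and -0.21 in these comparisons, and -0.16 and -0.06 for TBI+PBS against sham.

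Within the TBI+IL-25 library, microglia-like cells with an Ifnb1 UMI were set beside those without one. The 334 cells had a median depth of 5130 UMIs and the 5208 others 4708. None of the 7 other genes was past 1.5-fold, and their ratios ran from 0.940 for Ifnar2 (0.846 to 1.04) to 1.11 for Irf9 (0.906 to 1.35). Over 14057 genes, 12.9% were past it upward and 8.81% downward. Of 22 interferon-stimulated genes, 17 were higher and 0 lower. Ifit1, an RNA-binding antiviral protein, was at 111 CPM in cells with Ifnb1 and 18.7 CPM in cells without (5.94, 5.03 to 7.0). Isg15, a ubiquitin-like modifier, was at 246 and 66.4 CPM, and was seen in 47.3% and 16.2% of cells. Irf7 was at 17.4 and 12.8 CPM, a ratio of 1.36 (0.922 to 1.95).

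Inside cluster 13, the pattern was smaller. That cluster was itself led by interferon-stimulated genes, so a narrower range of these genes inside it can follow from how it was formed. Of its 601 TBI+IL-25 cells, 119 held Ifnb1, and of 21 measured interferon-stimulated genes 3 were higher (Ifit3b, Rsad2 and Ifit1) and 2 lower (Cxcl10 and Ifi204), against 6.58% of 9493 genes upward and 11.5% downward. Cxcl10 was at 791 CPM in cells with Ifnb1 and 1299 CPM in cells without (0.609, 0.553 to 0.669). The 7 other genes had ratios from 0.827 for Irf9 to 0.977 for Irf8, with intervals that spanned 1.

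**Figure D5:**
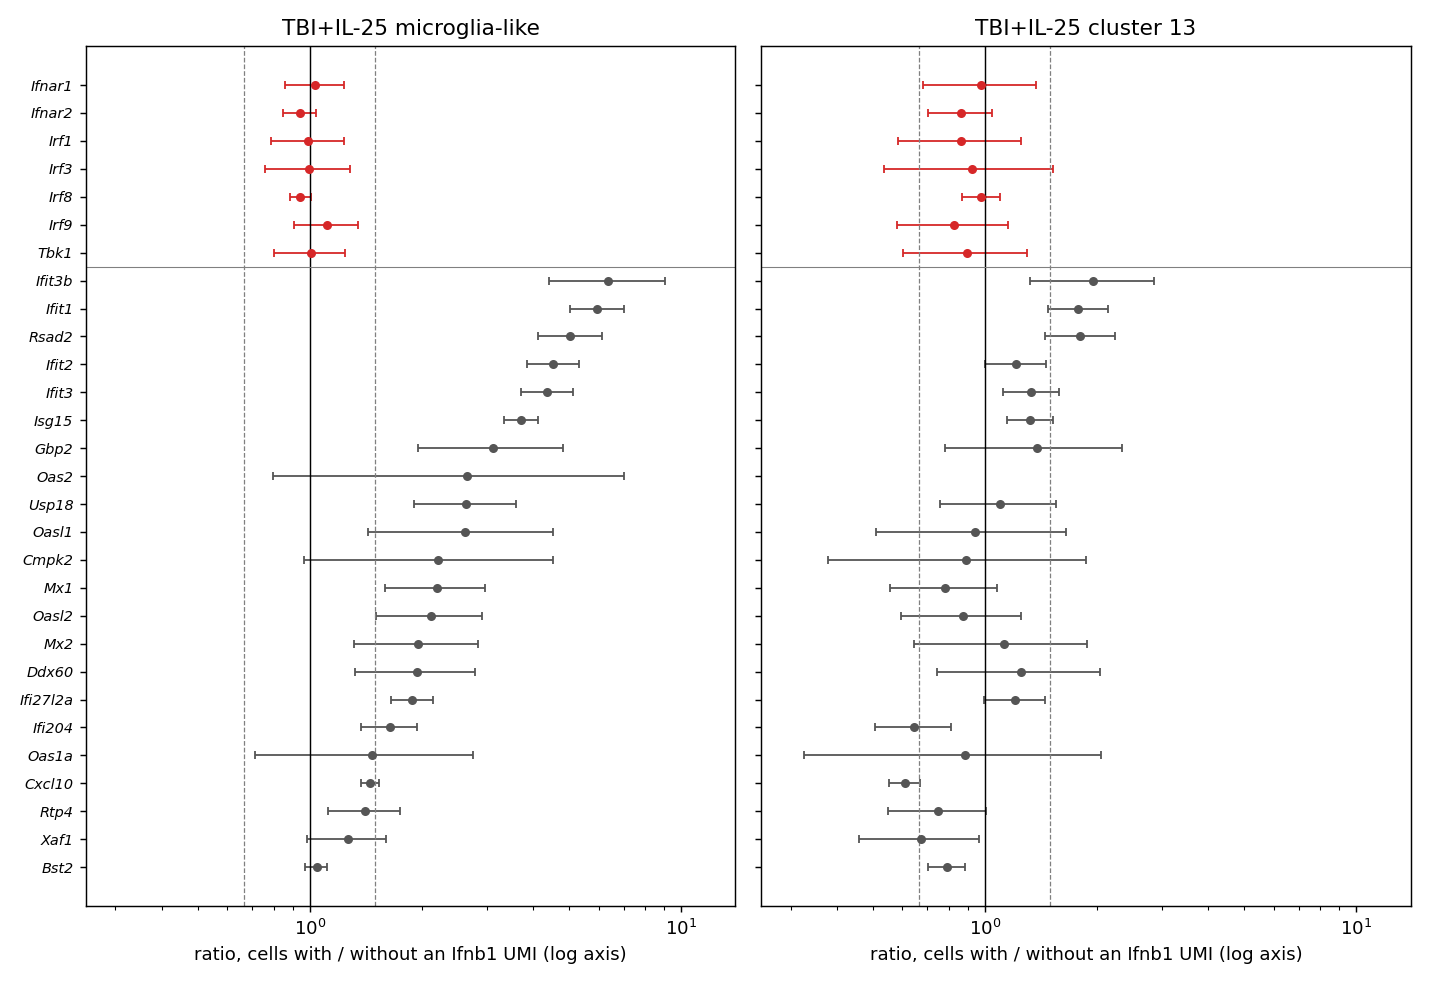
Ratio of level (log axis) between TBI+IL-25 microglia-like cells with and without an Ifnb1 UMI, for the 7 other genes (red) and the measured interferon-stimulated genes (grey), with exact intervals; dashed lines mark 1.5-fold. Left, all microglia-like cells; right, cluster 13. The 7 genes lie near 1 in both panels, and Ifit1 lies at 5.94 on the left and 1.78 on the right.

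Genes with the most similar pattern were ranked over 51 profiles, each 1 cluster in 1 library with at least 50 cells, by Pearson r of log2(CPM + 1) among 14963 genes. Profiles of a library share its preparation and depth, so these are descriptions. For Ifnb1 the nearest were Gm43221 (0.850), Cacna1s (0.801), Gm47123 (0.794), Gm28707 (0.776) and AI463229 (0.773). For Irf8 they included Ctss (0.994) and Fcgr3 (0.991). For Ifnar2 they were Sh2b3 (0.944), Anxa3 (0.942) and Ctsh (0.941), and for Ifnar1 Tmod3 (0.773), Ikbkb (0.771) and Map3k1 (0.759). Tap1, a peptide transporter of antigen presentation, was nearest to both Irf1 (0.891) and Irf9 (0.901). Irf3 was nearest to Ccnt2 (0.871) and Tbk1 to Ncstn (0.891).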

How the data were processed

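The deposited matrices hold raw UMI counts per gene and barcode from 10x 3' libraries. Per the file headers, the authors ran Cell Ranger 7.2.0 on the TBI+IL-25 library and 7.1.0 on the others. Per the submitters' processing notes, the version was 7.2.0 for all 3 libraries, a conflict that was not resolved, and the build was GRCm39. How barcodes were selected is not given in the sources used here. Totals were 39536447, 58148289 and 61372408 UMIs in 8939, 10643 and 14222 barcodes.

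From these counts, barcodes under 500 UMIs or 300 genes, or with over 20% mitochondrial UMIs, were dropped, and Scrublet scores above 0.2 were removed (scanpy 1.11.5). The automatic threshold marked 4 sham cells. Clustering used 2000 variable genes, 30 components, 15 neighbours and Leiden resolution 1 (leidenalg 0.10.2), without mitochondrial, ribosomal, haemoglobin, Xist and Malat1 genes. Clusters were named from marker lists: a marker counted when seen in at least 20% of cells at 2 times the median level over clusters. UMIs were summed per class and library. Ratios have exact conditional binomial intervals (SciPy 1.17.1). A gene was measured with 20 or more UMIs over both libraries, and past the fold at 1.5 or more or 0.667 or less. Interval and fold calls were tested on simulated counts. These were independent Poisson draws, the model behind the intervals, so they could not test UMIs clumped in a few cells. A count of 0 was read as allowing 3 UMIs. Classes under 30 cells entered no ranking, and profiles needed 50 cells. The 8 genes were taken out of the clustering after a first clustering had used Ifnb1. From each pathway list, at most the 4 most extreme genes past the fold in a comparison could be named; others in the text were chosen after their values were seen. The 30-cell minimum and the limits for doublets and cluster names were chosen with the data in view. The 8 genes and the lists were chosen with earlier results of these data known. Alternatives were other doublet, depth, mitochondrial, class, clustering, scaling and count settings. Some results are not reported here.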

Additional observations from a re-analysis of the deposited data

Results flagged for a closer look

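Irf1 lay on opposite sides of 1 in the 2 large classes when TBI+PBS was set against sham. The ratio was 0.664 in microglia-like cells (0.602 to 0.732) and 1.42 in astrocyte-like cells (1.13 to 1.78), and the intervals cover counting error only. With 1 library per group, the difference between the classes was not tested. In astrocyte-like cluster 1 alone the ratio was 0.539 (0.313 to 0.911), the same side as in microglia-like cells. In clusters 3, 5 and 14 it was 1.04, 1.30 and 0.740, with intervals that spanned 1. In microglia-like clusters 0, 9 and 13 it was 0.804, 0.653 and 0.653, and only the interval of cluster 13 spanned 1.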

How the results depend on the processing

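Under the alternatives, 117 values that answer a comparison stayed within their limits and 21 did not; for single genes 448 did, 65 moved and 1 reversed. Genes past the fold in microglia-like cells, TBI+PBS against sham, went from 2 to 1 with cells weighed equally, median-of-ratios size factors, cluster 9 alone, at least 200 UMIs per gene, or without the 10 cells of each library with the most Ifnb1. In astrocyte-like cells they went from 1 to 2 with classes set cell by cell from marker scores, median-of-ratios factors or no count minimum. For TBI+IL-25 against TBI+PBS in microglia-like cells they went from 1 to 2 with median-of-ratios factors or cluster 9 alone. The Ifnb1 ratio of 23.7 became 69.6 within cluster 9 and 90.3 without the 10 cells, an alternative added after seeing the data. That takes out 10 of 20 microglia-like cells with Ifnb1 in TBI+PBS and 10 of 334 in TBI+IL-25, so a higher ratio follows from its construction and supports nothing. Pathway genes past the fold went from 14 to 7 and from 16 to 10 within cluster 9 for the 2 comparisons, and in astrocyte-like cells from 15 to 7 within cluster 1 and to 9 at 200 UMIs per gene. The microglia-like share of Ifnb1 UMIs went from 87.5% to 100% in sham without the 10 cells, and from 96.4% to 83.6% in TBI+IL-25 with doublets kept (162 UMIs then sat in marked doublets classed astrocyte-like) and 94.4% with those marker-score classes. Cells with Ifnb1, thinned to 2000 UMIs, went from 0.435% to 0.194% in TBI+PBS and from 6.03% to 4.27% in TBI+IL-25. The astrocyte-like Irf8 ratio of 0.60 reversed to 1.29 with doublets kept. Causes were not tested. Fewer cells enter within 1 cluster, and fewer genes at 200 UMIs. The sham and TBI+PBS Ifnb1 values rest on 14 and 44 UMIs, which limits any ratio to them. No paired analysis was possible because each group is 1 library.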
